A study of Mus musculus with 4 samples.

Results

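A set of 9 genes that oligodendrocyte precursor cells use at their surface or to receive signals were examined for N6-methyladenosine (m6A) peaks in mouse whole brain: Pdgfra, Erbb3, Gpr17, Lingo1, Cspg4, Ptprz1, Cspg5, Bcan and Vcan. The members were every peak of either replicate that overlapped an annotated exon of 1 of these genes by at least 1 bp, with the exons taken from GENCODE M21 on GRCm38/mm10. Of the 38533 peaks of m6A immunoprecipitation (IP) replicate 1, 45 were members, and of the 30134 peaks of replicate 2, 35 were members. The 9 genes stood among 21866 protein-coding genes. The study had 4 samples from the whole brain of 4 week old mice of strain C57BL/6J, namely 2 m6A IP libraries and 2 input libraries. The series describes the mice as Prrc2a flox/flox; no Cre driver is named for these samples, and all 4 carry the same description, so there was 1 condition and no comparison between genotypes. How many animals each sample pooled is not given in the sources used here. Each IP library has a peak list with a fold enrichment per peak, the ratio of IP to input signal, and the inputs entered only through that ratio. The lists hold no read counts, so the depth behind a peak is unknown, and with 2 replicates both values are given in place of a mean and its error.

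m6A is a methyl mark on adenosines of messenger RNA (mRNA), placed mostly within a GGAC core by a nuclear methyltransferase complex and read by proteins that act on splicing, translation and decay. Oligodendrocyte precursors divide and migrate under platelet-derived growth factor and neuregulin signals and later mature into myelinating cells, and they coat themselves in chondroitin sulfate proteoglycans. Several of these mRNAs are also made by other brain cells: Lingo1 by neurons, Ptprz1, Cspg5 and Bcan by astrocytes, and Cspg4 by pericytes. In bulk tissue the cell of origin of a peak cannot be told, and fewer cells of a type and less RNA per cell cannot be told apart.

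All 9 genes carried a peak in both lists and at least 1 shared interval, the stretch common to overlapping peaks of both replicates. Over all protein-coding genes, 54.4% carried an exonic peak in replicate 1, 49.5% in replicate 2 and 45.5% a shared interval. Those genes were not filtered for expression in brain, and the markers of other brain cells given below all had a shared interval too. With a fold enrichment of at least 2 required in both lists, all 9 still had a shared interval, against 36.8% of genes. With midpoints required to lie within 100 bp of each other, 8 of 9 did, and Gpr17 lost its call. The share of all genes under that midpoint rule was not computed, so 8 of 9 has no background beside it. Of the members, 35 of 45 peaks in replicate 1 were shared (77.8%, against 67.8% of all its exonic peaks) and 32 of 35 in replicate 2 (91.4%, against 76.8%). Together they made 35 shared intervals, with a median genomic length of 332 bp over all 35. Over all genes, 19776 intervals overlapped exons of 1 gene only and could be placed on its representative transcript. Their median was 262 bases. The sets differ, since the member median includes intervals that could not be placed. No member peak overlapped an exon of another gene.

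Placed on 1 representative transcript per gene, chosen for its longest coding sequence (CDS), 33 of the 35 intervals had a position. Their middle lay in the 5′ untranslated region (UTR) in 2, in CDS in 20 and in the 3′ UTR in 11. These are 6.06%, 60.6% and 33.3% of the member intervals, against 9.7%, 62.0% and 28.3% of the 19776 placed intervals of all genes. The members differed more from the background by exon: 12 of 33 (36.4%) lay in internal exons of at least 400 nt, against 14.6% of all intervals, while 1 of 33 (3.03%) lay in internal exons under 400 nt, against 26.1%. First exons held 3 (9.09%, against 13.0%), last exons 17 (51.5%, against 43.8%) and single-exon transcripts 0, against 2.41% of all intervals. The 400 nt limit was chosen after the values were seen, and intervals of 1 gene share its RNA, so these shares are a description.

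**Figure D1:**
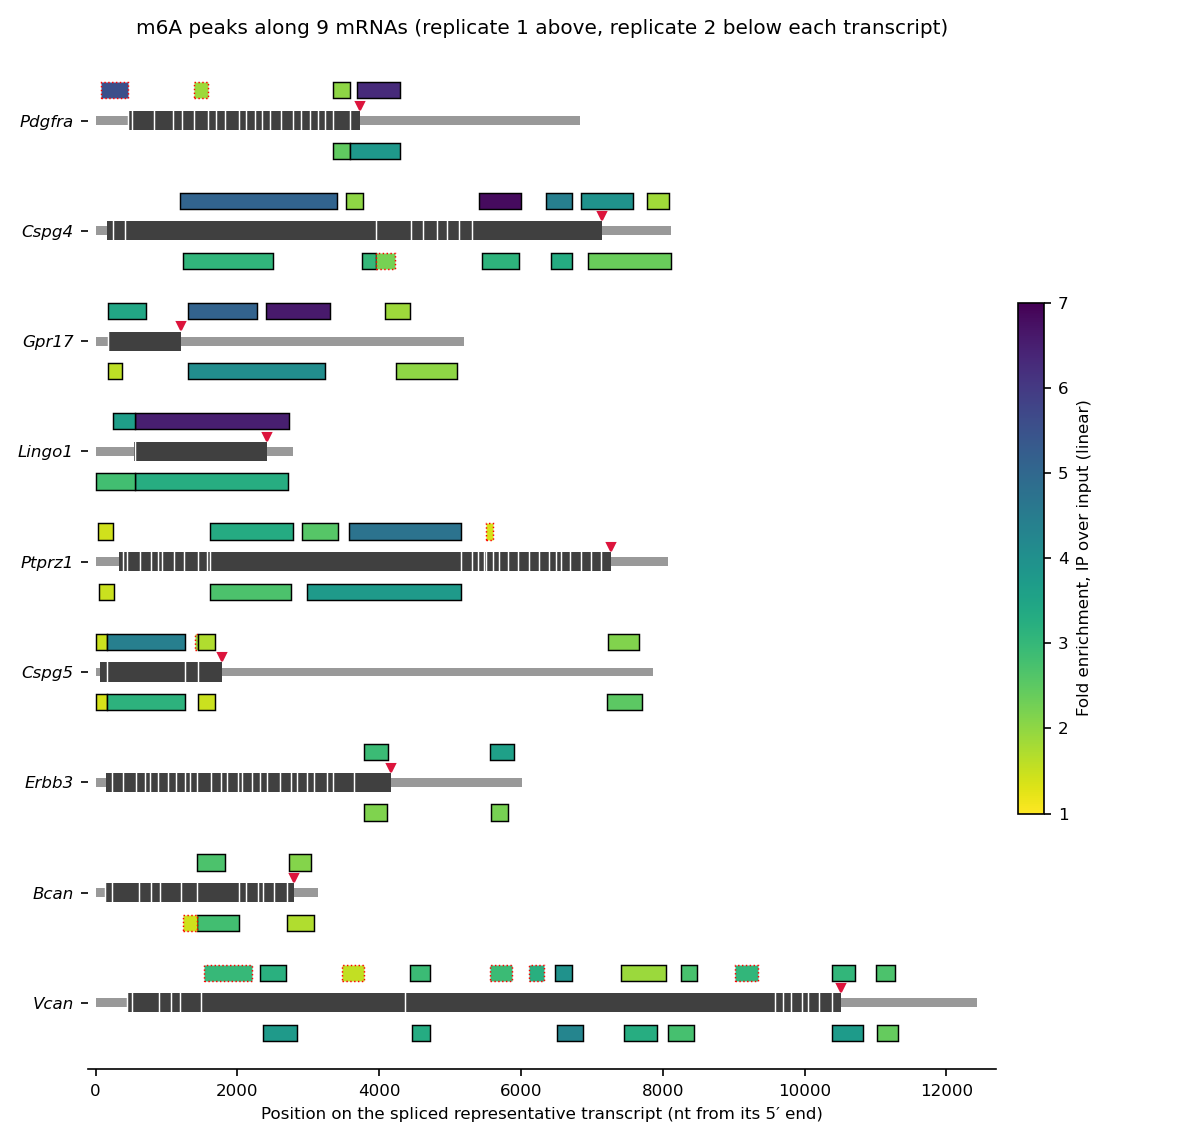
Peaks of each replicate, drawn at their own extent, along the representative mRNA of each of the 9 genes (x axis, nt from the 5′ end of the spliced transcript). The thick line is CDS, the thin line UTR, white lines exon borders and the red triangle the stop codon. Colour gives the fold enrichment on a scale from 1 to 7, with replicate 1 above and replicate 2 below the transcript, and a dotted red outline marks a peak found in 1 list only; 6 peaks outside the representative transcripts are not drawn. Peaks stand over the long exons of Cspg4, Ptprz1 and Vcan and over the last exons of Pdgfra, Erbb3 and Gpr17.

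**Figure D2:**
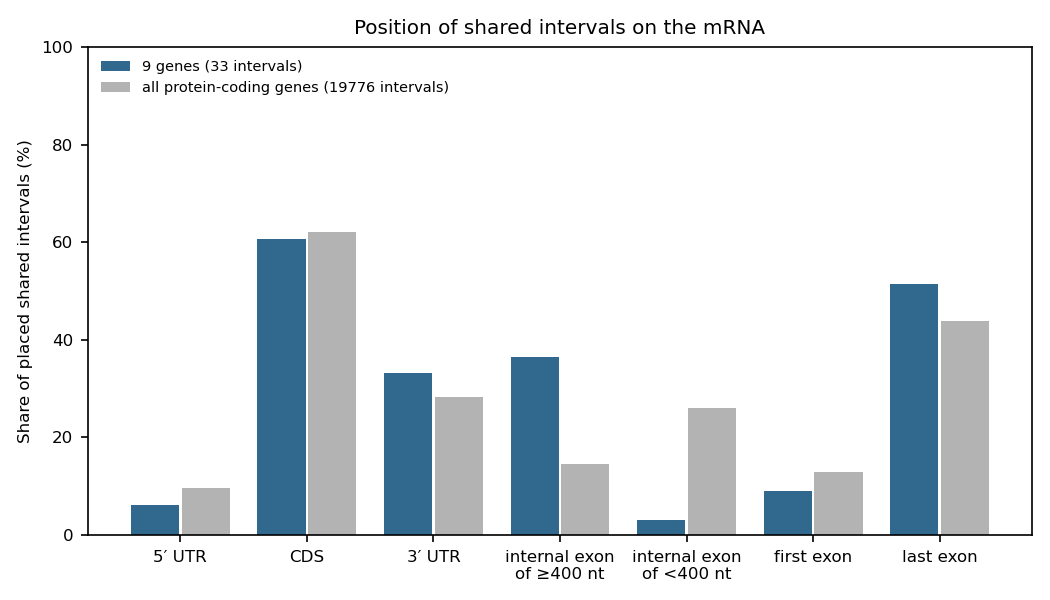
Percent of placed shared intervals (y axis, from 0 to 100) whose middle lay in each part of the mRNA or class of exon (x axis), for the 33 intervals of the 9 genes and the 19776 of all protein-coding genes. The bars differ the most for internal exons, with 36.4% against 14.6% at 400 nt or more and 3.03% against 26.1% below that length.

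The sequences that the strongest shared intervals cover are shown for the 8 genes whose sequence is printed here, since they hold the letters in which m6A is usually placed. Each was read from the GENCODE M21 transcript, 5′ to 3′ in the sense of the mRNA, with T for U. Capitals mark GGACT, or the core GGAC where the interval holds no GGACT. A coding window holds 101 nt and a UTR window 29 nt; the exon 22 interval of Pdgfra is given whole, because 3 GGACT lie within its 242 nt, and a second window is given for Erbb3 and for Vcan because their CDS intervals are described by exon.
Pdgfra exon 22, the whole coding interval, chr5:75192431-75192672, plus strand: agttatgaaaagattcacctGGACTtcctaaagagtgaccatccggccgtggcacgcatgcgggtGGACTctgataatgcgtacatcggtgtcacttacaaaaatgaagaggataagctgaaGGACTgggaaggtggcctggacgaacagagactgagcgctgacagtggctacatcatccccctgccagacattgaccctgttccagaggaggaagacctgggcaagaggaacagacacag
Pdgfra 3′ UTR, chr5:75195178-75195206, plus strand: aagttgagaagaGGACTtgggtgatgtgg
Erbb3 exon 28, coding, chr10:128569571-128569671, minus strand: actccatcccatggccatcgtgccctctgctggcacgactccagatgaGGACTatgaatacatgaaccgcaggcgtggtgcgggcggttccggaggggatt
Erbb3 3′ UTR, chr10:128567780-128567808, minus strand: ggagatgacacaGGACaagtaactagaca
Lingo1 exon 2, coding, chr9:56620172-56620272, minus strand: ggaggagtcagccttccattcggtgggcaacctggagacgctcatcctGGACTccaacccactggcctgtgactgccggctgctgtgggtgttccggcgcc
Cspg4 exon 10, coding, chr9:56898347-56898447, plus strand: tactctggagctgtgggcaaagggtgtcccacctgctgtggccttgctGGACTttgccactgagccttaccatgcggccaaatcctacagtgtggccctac
Ptprz1 exon 12, coding, chr6:23001890-23001990, plus strand: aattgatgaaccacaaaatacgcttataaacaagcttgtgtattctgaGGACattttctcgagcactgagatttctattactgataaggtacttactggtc
Cspg5 exon 2, coding, chr9:110246618-110246718, plus strand: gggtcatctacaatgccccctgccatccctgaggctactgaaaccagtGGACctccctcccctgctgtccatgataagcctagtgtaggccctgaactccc
Bcan exon 8, coding, chr3:87993327-87993427, minus strand: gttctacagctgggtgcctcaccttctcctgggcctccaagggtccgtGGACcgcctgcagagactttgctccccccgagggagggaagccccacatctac
Vcan exon 8, coding, chr13:89691204-89691304, minus strand: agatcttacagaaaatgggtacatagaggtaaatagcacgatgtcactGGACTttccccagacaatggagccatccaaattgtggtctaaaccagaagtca
Vcan exon 7, coding, chr13:89704728-89704828, minus strand: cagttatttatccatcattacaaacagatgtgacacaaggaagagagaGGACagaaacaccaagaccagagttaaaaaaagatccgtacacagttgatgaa

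GGACT was present in 18 of the 33 placed member intervals (54.5%, against 37.8% of all placed intervals), and GGAC in 32 of 33 (97.0%, against 74.7%). The member intervals were longer, so the same count was made in 100 nt around each middle: 10 of 33 (30.3%) held GGACT, against 15.5%. AGTCC, which is GGACT read on the opposite strand and so is not a GGACT in the mRNA, was present in 13 of 33 (39.4%, against 26.8%). GGACT and GGAC overlap by construction, and a match is a description of the letters, not a mapped m6A. The single member interval without GGAC was the 5 bp overlap in exon 3 of Cspg4. The 9 mRNAs together held 62 GGACT, of which 27 (43.5%) lay in shared intervals that cover 28.3% of their length. Over all genes with a placed interval, 28.2% of GGACT lay in intervals covering 19.2% of the length. Of the 27, 20 lay in CDS, 7 in 3′ UTRs and 0 in 5′ UTRs. In CDS the A of GGACT was the second base of its codon in 13 of 20 (65.0%), against 55.7% of 6218 such sites in all genes.

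Pdgfra (chr5:75152292-75198215, plus strand), the receptor for platelet-derived growth factor that drives precursor division, has 23 exons and carried 2 shared intervals. The stronger, at chr5:75195055-75195661, ran from the last codons into the 3′ UTR in exon 23, and its fold enrichment was 6.28 in replicate 1 and 3.81 in replicate 2. Those values stood at percentiles 96.7 and 93.6 of their lists. The other filled exon 22, which is coding, at chr5:75192431-75192672 with 2.01 and 2.47. Those values stood at percentiles 20.7 and 62.5, so the first was below the median of list 1. The 3 GGACT of this interval have their A in codons 968, 983 and 1002. A further peak over the 5′ UTR, at chr5:75155972-75156354, reached 5.56 and was listed in replicate 1 only, as were peaks of 2.32 and 1.88. The 5.56 was the highest value of any member peak found in 1 list, at percentile 93.6 of list 1. Only 2 of 7 coding transcripts of Pdgfra hold the exons of both shared intervals.

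Erbb3 (chr10:128567523-128589652, minus strand), the neuregulin receptor that pairs with ERBB2, has 28 exons. It carried 2 peaks in each list and both were shared. Both lay in exon 28, its last exon of 2372 nt. The coding interval, at chr10:128569432-128569753, ended 62 nt before the stop codon with 2.92 in replicate 1 and 2.15 in replicate 2. The 3′ UTR interval, at chr10:128567719-128567959, had 3.61 and 2.22. In both replicates the strongest peak of Erbb3 was among the weakest of the 9 strongest peaks, eighth in replicate 1 and ninth in replicate 2.

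Gpr17 (chr18:31942997-31949636, minus strand), a G protein-coupled receptor that marks precursors about to mature, has a CDS of 1020 nt and a 3′ UTR of 3992 nt in a last exon of 5019 nt. Its strongest signal lay in that 3′ UTR. In replicate 1 there were separate peaks of 6.59, at chr18:31944951-31945783 where shared, and 5.11, at chr18:31945914-31946886. In replicate 2 a single peak of 4.08 spanned both. A weaker 3′ UTR interval had 1.87 and 2.03. The coding interval, at chr18:31947812-31948012, had 3.43 and 1.59, which put it above the median of list 1 (2.88) and below that of list 2 (2.20). Gpr17 had 4 shared intervals, and of genes that had any and a transcript of 80% to 125% of its length, 76.3% had fewer. Its count rested on the loose overlap: it fell to 1 with 50% of both peaks overlapping, to 0 with midpoints within 100 bp and to 2 with a fold enrichment of 2 or more.

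Lingo1 (chr9:56618475-56796468, minus strand), a leucine-rich repeat protein that restrains precursor maturation and acts with the Nogo receptor in neurons, has nearly all of its CDS in exon 2. A single shared interval of 2320 bp, at chr9:56619155-56621474, covered that CDS and part of the 3′ UTR, and held 4 GGACT. Its fold enrichment was 6.50 in replicate 1 and 3.25 in replicate 2, a ratio of 2.00. A 5′ UTR interval, at chr9:56634979-56635377 in 1 of 4 coding transcripts, had 3.66 and 2.82. The other shared intervals lay outside the representative transcript. One, in the 3′ end of 2 of 4 coding transcripts, had 2.18 and 2.46. The other, in 0 of 4 coding transcripts, overlapped the 5′ end of the gene at chr9:56796295-56796873. It reached past the annotated start of the gene at 56796468, with 5.27 and 2.11. That pair had the largest ratio of the 32 matched pairs, 2.50. Replicate 2 alone listed a peak of 2.00 over an exon of another transcript. Over introns of Lingo1, replicate 1 listed peaks of 1.65 and 3.68 and replicate 2 listed none.

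The proteoglycans carried all 12 of the member intervals in internal exons of at least 400 nt. Pdgfra, Erbb3, Gpr17 and Lingo1 have no internal exon that long. The 5 proteoglycan genes have 7, of which 6 (85.7%) held the middle of a shared interval. Over all genes with a placed interval, 74.2% of such exons did, so the share in the members was near the background. The exon without one was exon 4 of Cspg4, of 483 nt.

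Cspg4 (chr9:56865033-56899870, plus strand), which encodes the NG2 proteoglycan, has 10 exons and carried 6 shared intervals. Exon 3, of 3552 nt, held one at chr9:56886059-56887334 with 5.08 in replicate 1 and 3.08 in replicate 2. A second interval there had peaks of 2.02 and 3.01 that met over 5 bp only. Exon 10, which holds the end of the CDS and the 3′ UTR, carried the other 4. The one at chr9:56897203-56897718 had 6.82 and 3.11 and was the strongest member peak of replicate 1. The next, at chr9:56898166-56898473, had 4.43 and 3.32. An interval over the stop codon, at chr9:56898700-56899333, had 3.97 and 2.38, and the last, 1.85 in replicate 1, lay under the same replicate 2 peak. Replicate 2 alone listed a peak of 2.24 at chr9:56890058-56890321. Of genes with a shared interval and a transcript of like length, 81.9% had fewer shared intervals than Cspg4. Its count of 6 fell to 4 with 50% of both peaks overlapping and to 2 with midpoints within 100 bp. The like-length genes were not counted under those rules.

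Ptprz1 (chr6:22875502-23052916, plus strand), a receptor tyrosine phosphatase that carries chondroitin sulfate and is also shed as phosphacan, had its strong peaks in exon 12 of 30, an exon of 3547 nt. The interval at chr6:23001167-23002890 had 4.71 in replicate 1 and 3.76 in replicate 2. That replicate 2 peak also covered the interval at chr6:23000571-23001010, where replicate 1 had 2.58. The interval at chr6:22999128-23000338 had 3.34 and 2.70. All 3 transcripts of Ptprz1 hold at least part of the last of these, and 2 of 3 hold the other pair. A 5′ UTR interval had 1.44 and 1.49, among the weakest member values. No base of a shared interval lay within 2103 nt of the stop codon.

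Cspg5 (chr9:110243783-110262576, plus strand), neuroglycan C, has 4 exons and carried its strongest interval over the whole of exon 2, at chr9:110246206-110247390 with 4.44 and 3.14. Those values stood at the same percentile of both lists, 83.4. Intervals in exon 1 (1.49 and 1.38) and in the coding part of exon 4 (1.72 and 1.48) were weak in both replicates. A peak of 1.93 over exon 3 was listed in replicate 1 only. The 3′ UTR is 6091 nt long, and its only shared interval, at chr9:110261917-110262363 with 2.13 and 2.52, had its middle 5670 nt after the stop codon.

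Bcan (chr3:87987531-88000230, minus strand), or brevican, is a lectican of the perineuronal matrix with a CDS of 2652 nt. Its exon 8 interval, at chr3:87993251-87993711, had 2.69 in replicate 1 and 2.81 in replicate 2. Its stop codon interval, at chr3:87987640-87987947, had 2.12 and 1.72, below the median of either list. Only 1 of its 2 coding transcripts holds each of these intervals. Replicate 2 alone listed a peak of 1.43 over exon 7, and replicate 1 an intronic peak of 1.49.

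Vcan (chr13:89655312-89742509, minus strand), or versican, had the most intervals, 7, on the longest transcript, 12427 nt. Exons 7 and 8 encode the stretches to which the chondroitin sulfate chains attach and are spliced in or out to give the versican isoforms. Exon 8, of 5217 nt, held 4 intervals. From its 5′ end, these lay at chr13:89693155-89693398 with 2.90 in replicate 1 and 3.32 in replicate 2, at chr13:89691141-89691355 with 3.96 and 4.27, at chr13:89689952-89690408 with 1.90 and 3.27 and at chr13:89689433-89689612 with 2.74 and 2.78. All 4 were the higher in replicate 2. Exon 7, of 2880 nt, held 1 interval, at chr13:89704596-89704920 with 3.19 and 3.76. Each of the 2 exons is part of 2 of 8 coding transcripts. Near the stop codon an interval at chr13:89657027-89657358 had 3.06 and 3.74, and a 3′ UTR interval at chr13:89656468-89656719 had 2.70 and 2.42. Replicate 1 also listed 5 peaks that replicate 2 did not, of 1.54 to 3.21, all in exons 7 and 8. The 4 of them above its median of 2.88 were at chr13:89705071-89705754 (2.97) in exon 7 and at chr13:89691999-89692308 (2.90), chr13:89691549-89691755 (3.21) and chr13:89688524-89688851 (3.06) in exon 8. With them replicate 1 listed 7 peaks in exon 8, spread over it, where replicate 2 listed 4.

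An interval with its middle within 200 nt of the stop codon was present in 3 of 9 genes (33.3%, against 47.6% of 8988 genes). They were Cspg4 (middle 128 nt after it), Bcan (80 nt) and Vcan (40 nt). Counting any base of an interval, 8 of 9 (88.9%, against 69.2%) reached that window, all but Ptprz1. Whether the members lay below or above the other genes thus turned with the definition.

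The replicates ranked the genes differently. By the strongest exonic peak of each gene, replicate 1 gave Cspg4 6.82, Gpr17 6.59, Lingo1 6.50, Pdgfra 6.28, Ptprz1 4.71, Cspg5 4.44, Vcan 3.96, Erbb3 3.61 and Bcan 2.69. Replicate 2 gave Vcan 4.27, Gpr17 4.08, Pdgfra 3.81, Ptprz1 3.76, Cspg4 3.32, Lingo1 3.25, Cspg5 3.14, Bcan 2.81 and Erbb3 2.22. Gpr17 and Pdgfra were in the upper 4 in both, and Erbb3 and Bcan were the lowest pair in both. Vcan moved from seventh to first, and in replicate 2 the values from Pdgfra down to Cspg5 lay between 3.14 and 3.81.

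Matched one to one, the members gave 32 pairs of peaks. Their median fold enrichment was 3.12 in replicate 1 against 2.79 in replicate 2, and the median ratio was 1.20 (quartiles 0.91 and 1.47). The 20996 matched exonic pairs of all genes had medians of 2.98 and 2.30 and a ratio of 1.29. Replicate 2 was the higher in 13 of 32 member pairs (40.6%, against 21.7% of all pairs). Vcan accounted for much of this: 6 of its 7 pairs were higher in replicate 2, while 1 of 5 pairs of Cspg4 was. Without Vcan the count was 7 of 25 (28.0%). Of 787 genes with at least 5 pairs, 50 (6.35%) had most of them higher in replicate 2, and of the members with that many, Vcan did and Cspg4 did not, 1 of 2. The limit of 5 pairs and the omission of Vcan were chosen after the values were seen. Across the 32 pairs Spearman's rho between replicates was 0.55, and across all 20996 it was 0.64; pairs of 1 gene share its RNA and all share the 2 libraries, so these are descriptions.

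**Figure D3:**
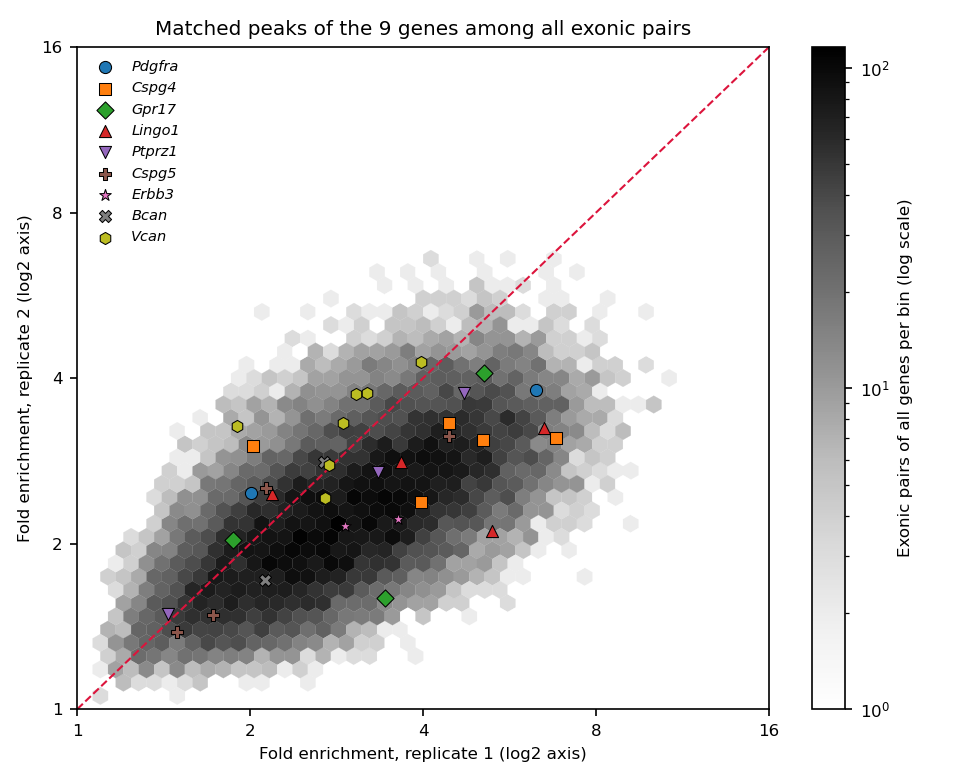
Fold enrichment over input of the 32 matched member pairs in replicate 1 (x axis, log2) and replicate 2 (y axis, log2), with 1 point per pair and 1 symbol per gene, over the 20996 matched exonic pairs of all genes in grey bins (darker, more pairs). Of the 7 points of Vcan, 6 lie above the dashed line of equal values, and most points of Cspg4 and Lingo1 lie below it.

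Peaks found in 1 list were weaker on the whole. In replicate 1 the 10 unshared member peaks had a median fold enrichment of 2.61, from 1.37 to 5.56, and the 35 shared ones 3.06, from 1.44 to 6.82. In replicate 2 the 3 unshared ones had a median of 2.00 and the 32 shared ones 2.79. The ranges overlapped in both lists. Of the 10 in replicate 1, 5 were over Vcan and 3 over Pdgfra, so 2 genes held 8 of them.

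Among the 9948 genes with a shared interval, longer transcripts carried more of them, and most members are long. Among those of these genes with a like transcript length, taken as 80% to 125% of the member's, the median count was 3 for Pdgfra, Cspg4, Ptprz1, Cspg5 and Vcan and 2 for Gpr17, Lingo1, Erbb3 and Bcan. Against those medians, Vcan had 7, Cspg4 6, and Gpr17, Lingo1, Ptprz1 and Cspg5 4 each, while Pdgfra, Erbb3 and Bcan had 2. Genes with no shared interval were left out of this comparison. The share of these like-length genes with fewer intervals was 88.3% for Lingo1, 82.1% for Vcan and 81.9% for Cspg4, and it was lowest for Pdgfra, 25.2%, and Erbb3, 27.8%. As for every gene here, the Lingo1 count took in exons of all transcripts, while its length was that of the representative transcript. On exons of that transcript alone Lingo1 had 2 shared intervals. The like-length genes were not counted in that way, so this 2 has no background beside it. All counts in this comparison used the overlap of at least 1 bp.

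**Figure D4:**
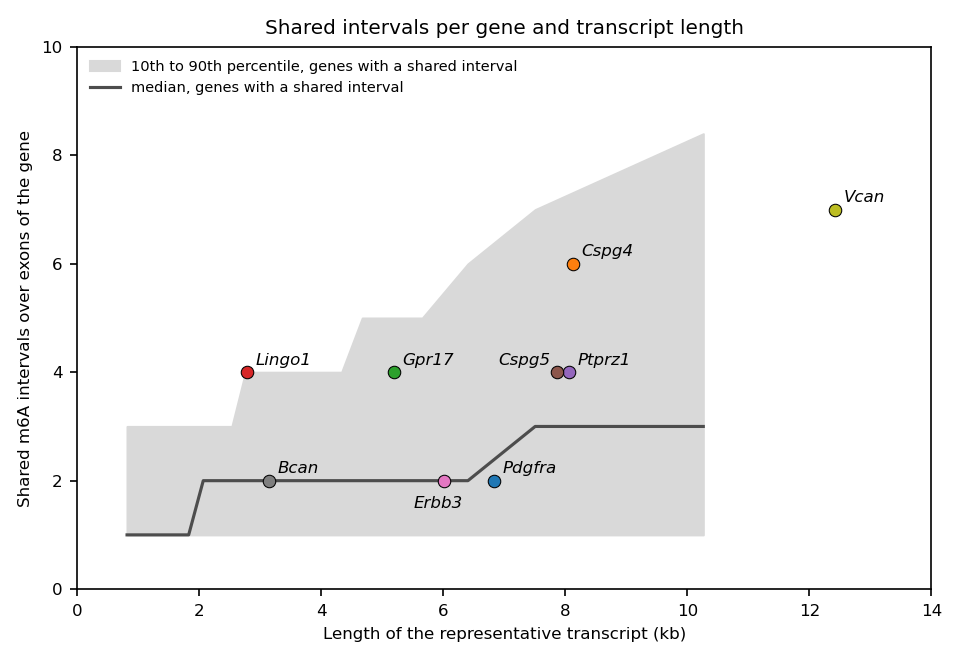
Number of shared intervals (y axis) against the length of the representative transcript (x axis, kb) for the 9 genes, over the median (line) and the 10th to 90th percentile (band) of all genes with a shared interval in 20 bins of length, drawn at each bin's median length. Cspg4 (6) stands above the median line, Pdgfra (2) below it, and Vcan (7) is longer than the last bin's median.

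Partners of these proteins were listed from the same peaks: 38 genes in 6 groups, of which 33 (86.8%) had a shared interval. The share was 45.5% over all genes, which were not filtered for expression in brain. For PDGF ligands and the other receptor the count was 4 of 5. Pdgfa, the ligand of PDGFRA, had 4 intervals, the strongest at 5.98 in replicate 1 and 5.99 in replicate 2, while Pdgfd had a peak in each list and none shared. For neuregulins and other ERBB receptors it was 6 of 7, and Erbb2, the partner of Erbb3, had no peak. Among other lecticans, link proteins and tenascins it was 6 of 8. Tnr, tenascin-R, which binds lecticans, had 7 intervals, and Acan, or aggrecan, reached 5.90 and 3.04. Ncan, or neurocan, had 4 intervals of which the strongest had 2.62 and 2.50, and Hapln3 had no peak. All 9 of the LINGO relatives and Nogo receptor group had one, with Rtn4r, the Nogo receptor, at 7.04 and 3.57. Among ligands and the closest relative of PTPRZ1 it was 3 of 4, with Ptn, or pleiotrophin, at 3.67 and 3.05. All 5 other G protein-coupled receptors of the lineage had one, with Lpar1, a lysophosphatidic acid receptor, at 6.66 and 3.11.

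Markers of other cell types were counted in the same lists. Over all protein-coding genes 45.5% had a shared interval, and a gene without a peak can still be expressed. A shared interval was present in 5 of 5 neuron markers, 5 of 5 astrocyte markers, 5 of 5 mature oligodendrocyte markers, 4 of 4 microglia markers and 4 of 4 markers of endothelium and mural cells, and in 1 of 6 genes of tissues outside brain, Myh6, with 3.90 and 3.17. Fold enrichments of the strongest interval overlapped between these groups and the 9 genes. The part of each cell type in the member peaks was not tested.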

How the data were processed

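m6A-seq libraries of mouse whole brain were examined as deposited. Per the labels, poly(A) RNA was fragmented, immunoprecipitated with an anti-m6A antibody and sequenced together with input RNA. According to the study's methods, the authors aligned reads with TopHat and called peaks with MACS2 in each replicate against its own input, with no fragment model, duplicates kept and a false discovery rate limit. The submitters' processing notes name TopHat2 2.0.9 and build mm10; the methods name another TopHat version. The deposited value is the fold enrichment of each peak, a ratio of IP to input signal by the authors. A ratio depends on input signal and caller settings and gives neither depth nor the share of methylated molecules. Replicates were called separately and not pooled.

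Peak coordinates count both ends. Exons came from GENCODE M21 (GRCm38/mm10), and chrMT was read as chrM. A gene's representative transcript was that with the longest CDS. Peaks of both lists overlapping by at least 1 bp were shared, and their common stretch was the interval, placed by its middle. Matched pairs joined each peak to its best partner, once. GGACT and GGAC were searched on the mRNA strand. Described in the text are all 9 genes, with positions for the strongest shared interval of each, by the lower of both values, and for most others. The genes and lists were chosen with earlier results of these data known. There is 1 condition, so no test was made. Alternatives changed the overlap, the minimum fold enrichment, the placement, the exons, the windows and the replicates used. Overlaps were checked against bedtools 2.31.1 and on simulated data. Python 3.11.15, numpy 2.4.6 and pandas 2.3.3 were used. The input libraries' own values were not used here.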

Additional observations from a re-analysis of the deposited data

How the results depend on the processing

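For 9 results over the member genes, 72 alternative values were computed, of which 59 stayed within the limit set for them and 13 did not. The limit was a ratio of 1.5 for counts and the standard deviation of the 2 replicate medians for fold enrichments. For shares it was a 95% interval of the main value. That interval treats peaks of 1 gene as independent, which they are not, so the 59 is no measure of robustness. With peaks required to have midpoints within 100 bp, the shared exonic peaks fell from 35 to 21, the shared percent of replicate 1 peaks to 46.7 and of replicate 2 peaks to 60.0, and 1 gene in place of 3 had an interval within 200 nt of the stop codon. With 50% of both peaks overlapping, the replicate 1 percent was 62.2 and the median fold enrichment 3.27. With only peaks of fold enrichment 2 or more kept, the medians were 3.61 and 3.01. A 400 nt window gave 6 genes at the stop codon and any base of the interval gave 8; any base of CDS gave 75.8% of intervals. The motif share was 97.0% for GGAC and 30.3% for GGACT in 100 nt around the middle. With either replicate alone all 9 genes had a peak, the count of exonic peaks was 35 or 45, the median fold enrichment 2.70 or 2.92, the genes at the stop codon 2 or 3, the CDS percent 65.6 or 66.7 and the GGACT percent 47.6 to 62.5. Of 72 values of shared intervals per gene, 11 moved, among them Pdgfra from 2 to 5 and Vcan from 7 to 12 in replicate 1 alone, and Gpr17 from 4 to 1, 0 and 2 with 50% overlap, with midpoints within 100 bp and with fold enrichment 2 or more. Cspg4 fell from 6 to 2 under the midpoint rule. Under it 8 of 9 genes had a shared peak, and no share over all genes or all peaks was computed under that rule. No paired analysis was possible because the result comes from no test and the inputs have no processed values used here. Depth is unknown, so a peak in 1 list cannot be set against what the other library could have detected.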
